A study of Mus musculus with 5 samples.

Results

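The 8 genes described here carry the Notch signal inside the cell or answer to it: Rbpj, Maml2, Hes1, Hey1, Hey2, Heyl, Nrarp and Lfng. They were chosen by symbol, all 8 were found among the 17638 genes of the deposited table, and all 8 passed the filter of a mean normalised read count of at least 10. Polyadenylated RNA was sequenced from cells positive for CD31, the endothelial surface protein that Pecam1 encodes, in 2 Tbx1cko and 3 control libraries. The hearts had been infarcted 5 days earlier. Tbx1cko is a conditional knockout of the T-box transcription factor gene Tbx1, which the series calls endothelial. The sources used here name neither the Cre line, nor the deleted part of the gene, nor any allele of the controls. All mice were 2 months old, on a C57BL/6 background. The labels call the cells endothelial, and the protocol speaks of RNA taken from hearts. Nothing in them ties a library to an animal, so a p-value here reflects library-to-library spread, which may be technical.

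When a ligand on a neighbouring cell binds a Notch receptor, the receptor is cut and its intracellular domain moves to the nucleus. There it joins RBPJ, a DNA-binding protein that otherwise represses its targets, and a Mastermind-like co-activator such as MAML2. The best-known targets are the bHLH repressor genes of the Hes and Hey families, whose products silence other genes, and Nrarp, whose product feeds back on the pathway. In vessels Notch is known for arterial identity, for the choice between tip and stalk cells during sprouting, and for the coat of pericytes and smooth muscle cells, where Notch3 and Heyl are active.

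RefSeq promoter windows (GRCm38.p6, 250 bases before to 50 after a gene's start) were held for 5 of the 8 genes, in 7 windows. Those of Hey2, Lfng and Nrarp are shown because they are the targets and modulators among the 5. Capitals mark TGGGAA, the core of the site that RBPJ binds, on either strand (TTCCCA when read on the other strand).
Hey2, chr10:30842734-30843033, minus strand: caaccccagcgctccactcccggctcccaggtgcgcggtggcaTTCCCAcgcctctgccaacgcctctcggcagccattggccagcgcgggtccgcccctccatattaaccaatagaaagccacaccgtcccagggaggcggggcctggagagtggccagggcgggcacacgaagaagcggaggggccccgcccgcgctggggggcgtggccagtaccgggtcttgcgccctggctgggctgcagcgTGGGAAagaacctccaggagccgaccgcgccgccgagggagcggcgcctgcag
Lfng, chr5:140607091-140607390, plus strand: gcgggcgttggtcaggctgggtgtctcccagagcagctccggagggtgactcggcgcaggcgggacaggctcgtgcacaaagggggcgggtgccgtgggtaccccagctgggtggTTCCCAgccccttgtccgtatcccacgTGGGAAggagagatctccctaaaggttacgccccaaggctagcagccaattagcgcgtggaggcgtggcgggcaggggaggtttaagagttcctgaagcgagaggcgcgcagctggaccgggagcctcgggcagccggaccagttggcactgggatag
Nrarp, chr2:25180508-25180807, plus strand: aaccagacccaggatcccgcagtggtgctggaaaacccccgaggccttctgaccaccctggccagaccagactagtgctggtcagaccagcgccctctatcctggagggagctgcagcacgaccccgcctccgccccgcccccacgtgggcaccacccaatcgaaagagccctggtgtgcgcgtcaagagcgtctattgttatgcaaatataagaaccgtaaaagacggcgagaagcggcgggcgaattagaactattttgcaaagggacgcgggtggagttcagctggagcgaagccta
Sequences run 5′ to 3′ on the strand of the gene. The windows of Hey2 and Lfng held 2 matches each and that of Nrarp held 0. Of the windows not shown, those of Rbpj, which overlap each other, held 2 and 1, and those of Maml2 held 0 and 1. Over all 32851 windows, 25.6% held at least 1. The longer form GTGGGAA, which contains the core, matched 2 times in Hey2 and 1 time in Lfng, against 6.38% of all windows. In Lfng that longer match overlapped CACGTG, an E-box of the kind that bHLH proteins bind. CACGTG also occurred 1 time in Nrarp, and 7.15% of all windows held it. The motifs are letter matches in these windows only.

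One library, control replicate 2, was unlike the rest and bears on every gene below. Libraries held 14689782 to 18617284 reads. Across the 14339 genes tested, log2 values of control replicate 2 had Pearson coefficients of 0.859 to 0.889 with those of the others. Among the other 4 libraries the coefficients were 0.980 to 0.988. Its deviation from the others went with transcript GC content (Spearman rho 0.801 across 13747 genes, which are not independent replicates). The difference between Tbx1cko and control went with GC content as well, with a rho of -0.714, and of -0.306 without control replicate 2. Values are therefore given with and without that library and with a correction for GC content. Tbx1 itself, the deleted gene, had 18.3 and 17.3 normalised reads in Tbx1cko, against 64.4, 72.7 and 69.6 in controls.

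The target genes Heyl, Nrarp and Hes1 had lower values in both Tbx1cko libraries than in any control library. The same held for 13.9% of the genes tested, and 14.2% were higher without overlap. Heyl differed most, at a log2 difference of -1.01, about 2.02-fold lower in Tbx1cko. Rbpj and Maml2, of the nuclear complex, overlapped between the groups, with log2 differences of 0.48 and 0.18. Once control replicate 2 was set aside these became 0.034 and -0.016, and that of Heyl became -0.79. Hey1, Hey2 and Lfng overlapped too. No gene of the 8 passed an adjusted p of 0.05 with limma over all genes tested, where 0% of genes did, and the smallest unadjusted p was that of Heyl, at 0.0219. Heyl was the only one of the 8 with an unadjusted p under 0.05, against 1.37% of the genes tested that were lower at that level. Over all 5 libraries edgeR and DESeq2 also called 0 of the 8, with 0% and 0.0279% of genes called. At an unadjusted p under 0.05, Heyl (0.0204 in edgeR and 0.00724 in DESeq2) and Nrarp (0.0489 in edgeR and 0.0423 in DESeq2) were the 2 of the 8 that were lower, against 1.58% of genes in edgeR and 1.92% in DESeq2. Without control replicate 2, again 0 of the 8 passed (0.0209% of genes did), and Heyl and Nrarp were lower at an unadjusted p under 0.05 (4.07% of genes were).

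**Figure D1:**
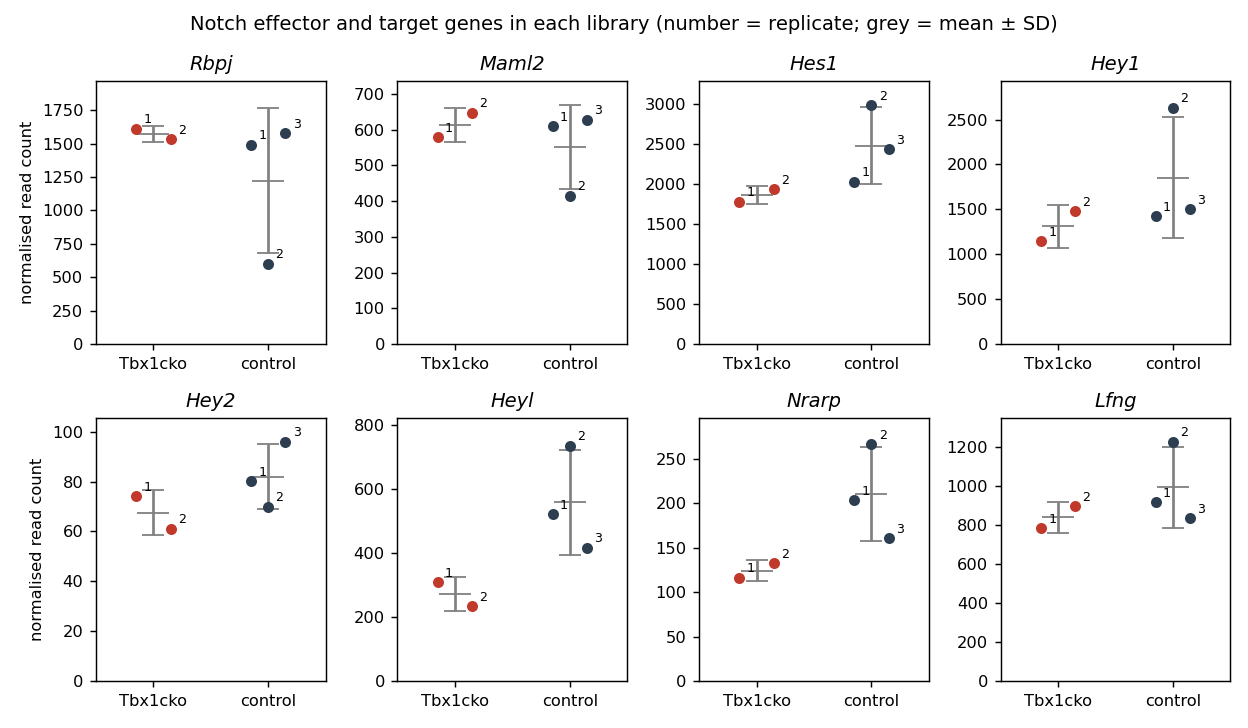
Normalised read count (vertical axes, from 0) of the 8 genes in each library, Tbx1cko in red and control in dark blue, with the replicate number beside each point and the group mean ± SD in grey. Heyl, Nrarp and Hes1 show no overlap between the groups, and control replicate 2 is the lowest library for Rbpj and Maml2 and the highest for Hes1, Hey1, Heyl, Nrarp and Lfng.

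Rbpj (ENSMUSG00000039191.12, chromosome 5, 53466152 to 53657362 in GRCm38, plus strand) encodes the DNA-binding hub of the pathway. It had 1612 and 1531 normalised reads in Tbx1cko replicates 1 and 2, against 1493, 602 and 1577 in control replicates 1 to 3. Only control replicate 2 was low, at 39.3% of the mean of control replicates 1 and 3, and the groups overlapped. On the scale of log2(normalised count + 1), the difference was 0.48 (SE 0.464, 95% interval -0.68 to 1.65, limma adjusted p = 0.762). Without control replicate 2 it was 0.034 (SE 0.118, interval -0.23 to 0.29), and after GC correction -0.0083. Rbpj has processed pseudogenes on chromosomes 4 and 6, so reads may be shared with those copies and its count is uncertain.

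Maml2 (ENSMUSG00000031925.17, chromosome 9, 13297957 to 13709388, plus strand) encodes a Mastermind-like co-activator. Its values were 579 and 647 normalised reads in Tbx1cko, against 610, 416 and 628 in controls. Here too control replicate 2 was the lowest library, and the other 4 lay between 579 and 647. The log2 difference was 0.18 (SE 0.265, interval -0.49 to 0.84, limma adjusted p = 0.794), and it was -0.016 both without control replicate 2 and after GC correction. The interval without control replicate 2 was -0.32 to 0.28. Read per kb of exon, Rbpj had 1.44 and 1.22 times the level of Maml2 in Tbx1cko, against 1.27, 0.75 and 1.30 times in controls.

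Hes1 (ENSMUSG00000022528.8, chromosome 16, 30064384 to 30067796, plus strand), the bHLH repressor gene that many cells switch on in answer to Notch, had 1784 and 1942 normalised reads in Tbx1cko. The controls had 2030, 2987 and 2438. The groups did not overlap, and the gap between the highest Tbx1cko and the lowest control library was small beside the spread among controls, whose SD was 479.8. The means were 1863 ± 112 in Tbx1cko (SD, n = 2) and 2485 ± 480 in control (SD, n = 3). The log2 difference was -0.40 (SE 0.229, interval -0.97 to 0.17, limma adjusted p = 0.762), -0.26 without control replicate 2 and -0.37 after GC correction.

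Hey1 (ENSMUSG00000040289.8, chromosome 3, 8663359 to 8667256, minus strand), a repressor gene of arterial endothelium, had 1143 and 1482 normalised reads in Tbx1cko, against 1426, 2633 and 1504 in controls. Control replicate 2 was at 180% of the mean of the other controls, and Tbx1cko replicate 2 lay between control replicates 1 and 3. The log2 difference was -0.45 (SE 0.336, interval -1.29 to 0.39, limma adjusted p = 0.762) and -0.17 without control replicate 2.

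Hey2 (ENSMUSG00000019789.9, chromosome 10, 30832359 to 30842801, minus strand), which is also known in ventricular muscle and coronary arteries, was the scarcest of the 8 genes. It rested on 81 and 60 reads in Tbx1cko and on 71, 76 and 102 reads in controls, so that counting error alone was 9.90% to 12.9% of a value. Normalised reads were 74.1 and 61.1 in Tbx1cko, against 80.2, 69.9 and 96.0 in controls. The log2 difference was -0.27 (SE 0.292, interval -1.003 to 0.46, limma adjusted p = 0.762). It became -0.38 without control replicate 2, where the groups no longer overlapped, and -0.56 after GC correction.

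Heyl (ENSMUSG00000032744.4, chromosome 4, 123233556 to 123249875, plus strand), the Hey family member of vascular smooth muscle and pericytes, had 308 and 233 normalised reads in Tbx1cko, against 521, 735 and 416 in controls. Both Tbx1cko libraries were below all 3 controls, with means of 271 ± 52.9 (SD, n = 2) and 557 ± 163 (SD, n = 3). The log2 difference of -1.01 (SE 0.319) had an interval of -1.81 to -0.21, an unadjusted p of 0.0219 and an adjusted p of 0.762 with limma. It ranked 64 among the 14339 genes by unadjusted p. Without control replicate 2 the difference was -0.79 (SE 0.187, limma adjusted p = 0.291), and after GC correction it was -0.77.

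The call of Heyl turned on the tool once control replicate 2 was left out. DESeq2 on whole reads recovered from the normalised counts gave an adjusted p of 0.049 when its filter on low counts was tuned to the threshold of 0.05. That p was 0.0671 with the filter's default setting and 0.0727 with no such filter, both added after the data were seen. In these 3 fits DESeq2 called 0.888%, 0.491% and 0.446% of the genes it gave an adjusted p. With edgeR the adjusted p was 0.295, in a fit that called 0.00697% of genes. Sample weights in limma, on all 5 libraries, took Heyl and Nrarp past the threshold, at adjusted p of 0.0164 and 0.0316. That fit called 760 genes. It gave control replicate 1 a weight of 19.1 and control replicate 2 one of 0.0606, with 0.536 for control replicate 3 and 1.27 for each Tbx1cko library.

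Nrarp (ENSMUSG00000078202.3, chromosome 2, 25180758 to 25183339, plus strand) encodes a small ankyrin-repeat protein that dampens Notch signalling. Its values were 116 and 132 normalised reads in Tbx1cko, against 203, 267 and 161 in controls, again with no overlap. The log2 difference was -0.73 (SE 0.301, interval -1.48 to 0.027, unadjusted p = 0.0563, limma adjusted p = 0.762). Without control replicate 2 it was -0.54 (interval -1.01 to -0.07, limma adjusted p = 0.596), and after GC correction -0.51. An antisense gene, Gm38287, overlaps an exon of Nrarp. Whether the counting used strand is unknown here, so reads of these genes cannot be told apart.

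Lfng (ENSMUSG00000029570.5, chromosome 5, 140607320 to 140615545, plus strand) encodes Lunatic fringe, a glycosyltransferase that modifies Notch receptors and tilts them towards Delta-type ligands. It had 784 and 895 normalised reads in Tbx1cko, against 917, 1226 and 833 in controls. Tbx1cko replicate 2 lay between control replicates 3 and 1. The log2 difference was -0.22 (SE 0.245, interval -0.84 to 0.39, limma adjusted p = 0.763). It was -0.062 without control replicate 2, and its sign turned to 0.13 after GC correction.

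**Figure D2:**
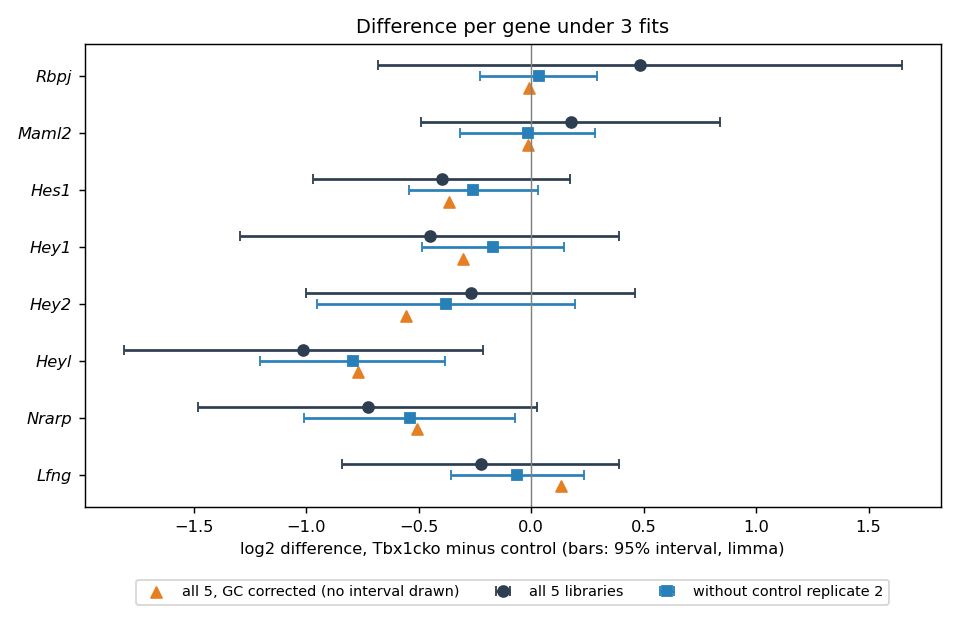
Log2 difference, Tbx1cko minus control (horizontal axis), of each gene with all 5 libraries (circles) and without control replicate 2 (squares), with limma 95% intervals as bars, and after GC correction (triangles, no interval drawn). The intervals of Heyl lie below 0 in both fits, that of Nrarp only without control replicate 2, and Rbpj, Maml2 and Lfng sit near 0 in that fit.

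Of the 8 genes, 6 had a log2 difference below 0 with all libraries, against 47.6% of the genes tested. Their median difference was -0.33, against 0.028 over all genes tested. The groups did not overlap for 3 of the 8, all lower in Tbx1cko, against 13.9% of the genes tested for lower and 14.2% for higher. Without control replicate 2, 7 of 8 were below 0 (46.7% of genes tested), the median was -0.21, and 4 of 8 were lower without overlap (17.8% of genes tested) and 0 higher (19.7%). After GC correction 7 of 8 were below 0 (50.8% of genes), at a median of -0.34. These counts describe a list that was chosen with results of these data known, and no test of the list was made.

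The GC content of the 8 transcripts ran from 43.7% in Rbpj to 58.8% in Lfng, around a median of 49.7% over the genes tested. Control replicate 2 deviated from the mean of the other 4 libraries by -1.36 in Rbpj, -0.56 in Maml2 and -0.14 in Hey2 (log2), the 3 genes poorest in GC. It deviated by 0.52 to 1.05 in the other 5. In the fit that both left out control replicate 2 and corrected for GC, 7 of the 8 were below 0, against 47.6% of genes. Heyl and Nrarp, at 55.2% and 54.5% GC, stood at -0.72 (limma adjusted p = 0.413) and -0.48 (limma adjusted p = 0.652). Hey2 was at -0.43, Hes1 at -0.26, Hey1 at -0.13, Rbpj at -0.055 and Maml2 at -0.046, while Lfng was at 0.07. The part of GC content in what remained was not tested.

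**Figure D3:**
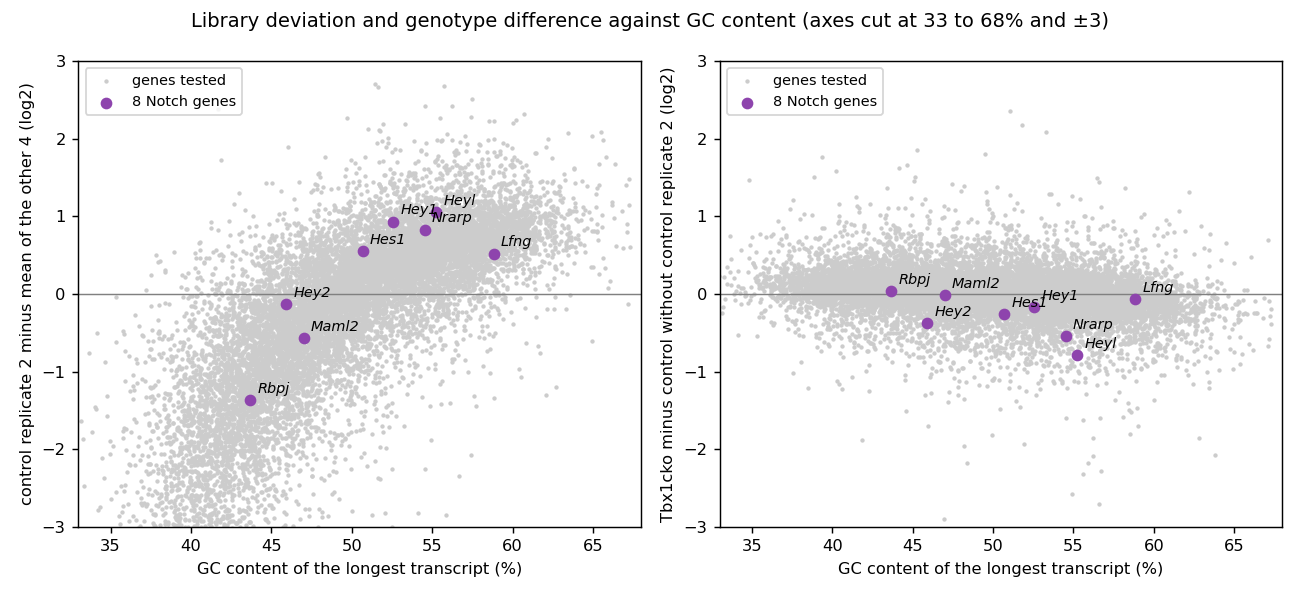
Each gene by GC content of its longest transcript (horizontal axes, %) against the log2 deviation of control replicate 2 from the mean of the other 4 libraries (left) and the log2 difference, Tbx1cko minus control, without that library (right), with the genes tested in grey and the 8 Notch genes in purple. Axes stop at 33% and 68% GC and at 3 log2 units either way. On the left the genes climb with GC content. The Notch genes broadly do so too, from -1.36 in Rbpj to 1.05 in Heyl, though Lfng, the richest in GC, is at 0.52. On the right Heyl and Nrarp are the lowest of the 8.

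Levels between genes were compared per kb of exon, as normalised reads per kb. Hes1 had the highest level, 915 ± 54.8 in Tbx1cko (SD, n = 2) and 1220 ± 236 in control (SD, n = 3). Hey1 followed at 402 ± 73.3 in Tbx1cko and 568 ± 207 in control, and then Lfng at 335 ± 31.3 in Tbx1cko and 396 ± 82.7 in control. Hey1 and Lfng overlapped between libraries in both groups. Rbpj, at 123 ± 4.49 in Tbx1cko and 96.0 ± 42.3 in control, and Maml2, at 92.9 ± 7.30 in Tbx1cko and 83.5 ± 17.8 in control, came next in Tbx1cko. Rbpj was divided by 12750 bp of merged exons, which few of its transcripts hold together, so its level per kb may be understated.

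Heyl had 53.0 ± 10.4 normalised reads per kb in Tbx1cko and 109 ± 31.8 in control, and Nrarp had 48.1 ± 4.47 in Tbx1cko and 81.5 ± 20.6 in control. In Tbx1cko these 2 genes overlapped each other and lay below Maml2, while in controls Heyl, Rbpj, Maml2 and Nrarp all overlapped. Hey2 was last in every library, at 14.7 ± 1.99 in Tbx1cko and 17.9 ± 2.86 in control. Within the Hey family, Hey1 exceeded Hey2 per kb by 21.7-fold and 34.1-fold in Tbx1cko, against 22.0-fold to 53.0-fold in controls. Heyl stood at 0.172 and 0.101 of Hey1 per kb in Tbx1cko, against 0.233, 0.178 and 0.177 in controls, with no overlap between the groups.

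Markers of mural cells, the pericytes and smooth muscle cells around vessels, were lower in Tbx1cko beside Heyl, though none passed the limma threshold. Of 11 mural markers, 10 had a log2 difference below 0, with a median of -0.86 (-0.65 without control replicate 2). Their groups did not overlap for 9, all lower, against 13.9% of the genes tested for lower. The summed level of the mural markers was 38370 and 40033 normalised reads in Tbx1cko, against 56868, 42473 and 49775 in controls. No mural marker was at 0 in any library. Rgs5 made up most of that sum in every library but control replicate 2, where it had 8734. Without Rgs5, a step taken after its values were seen, the sum was 15017 and 12921 in Tbx1cko, against 21686, 33740 and 18884 in controls. In bulk samples fewer cells of a type and less RNA per cell cannot be told apart.

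Set against Pdgfrb, the growth factor receptor of pericytes, Heyl did not separate the groups. It stood at 22.9% and 16.7% of the Pdgfrb count in Tbx1cko, against 16.5%, 16.7% and 20.7% in controls. Against Notch3, the mural Notch receptor, it stood at 15.1% and 10.4% in Tbx1cko and at 10.8%, 9.44% and 12.1% in controls. Against Cdh5, which encodes the endothelial junction protein VE-cadherin, Heyl was at 0.662% and 0.514% in Tbx1cko and at 1.05%, 1.17% and 0.871% in controls, with no overlap. The genes for these ratios and those below were picked after their values were seen. How many of all genes separate the groups in such ratios was not counted.

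For Nrarp the groups fell in another order. Its count was 8.63% and 9.49% of Pdgfrb in Tbx1cko, above the 6.43%, 6.04% and 8.002% of controls. Against the receptor gene Notch1, however, it was 2.33% and 2.06% in Tbx1cko and 2.35%, 1.74% and 2.12% in controls, which overlap. Against Cdh5 it was 0.250% and 0.292% in Tbx1cko, below the 0.410%, 0.424% and 0.337% of controls. Hes1 stood at 3.83% and 4.28% of Cdh5 in Tbx1cko and at 4.09%, 4.75% and 5.11% in controls, which overlap. Hey1 stood at 2.46% and 3.27% of Cdh5 in Tbx1cko and at 2.87%, 4.19% and 3.15% in controls, which overlap too.

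On the other scales, set by genes that were themselves lower in Tbx1cko, Hey1 was higher in both Tbx1cko libraries than in all controls. It was 22.9% and 23.0% of Notch1 in Tbx1cko, against 16.5%, 17.2% and 19.8% in controls. Per Pdgfrb it was 85.0% and 106% in Tbx1cko, against 45.1%, 59.7% and 74.8% in controls, and per Notch3 it was higher in Tbx1cko without overlap as well. Hes1 was 133% and 139% of Pdgfrb in Tbx1cko, against 64.2%, 67.7% and 121% in controls. It was higher in Tbx1cko per Notch3 too, and overlapped per Notch1. Per Notch3, Nrarp was 5.70% and 5.93% in Tbx1cko, against 4.24%, 3.43% and 4.67% in controls. Pdgfrb, Notch3, Notch1 and Cdh5 themselves had lower counts in both Tbx1cko libraries than in all controls, as did 13.9% of the genes tested. Their log2 differences were -1.15, -1.24, -0.82 and -0.21 in that order, beside -0.45 for Hey1, -0.40 for Hes1 and -0.73 for Nrarp. A gene that is lowered less than the gene it is divided by rises in such a ratio.

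**Figure D4:**
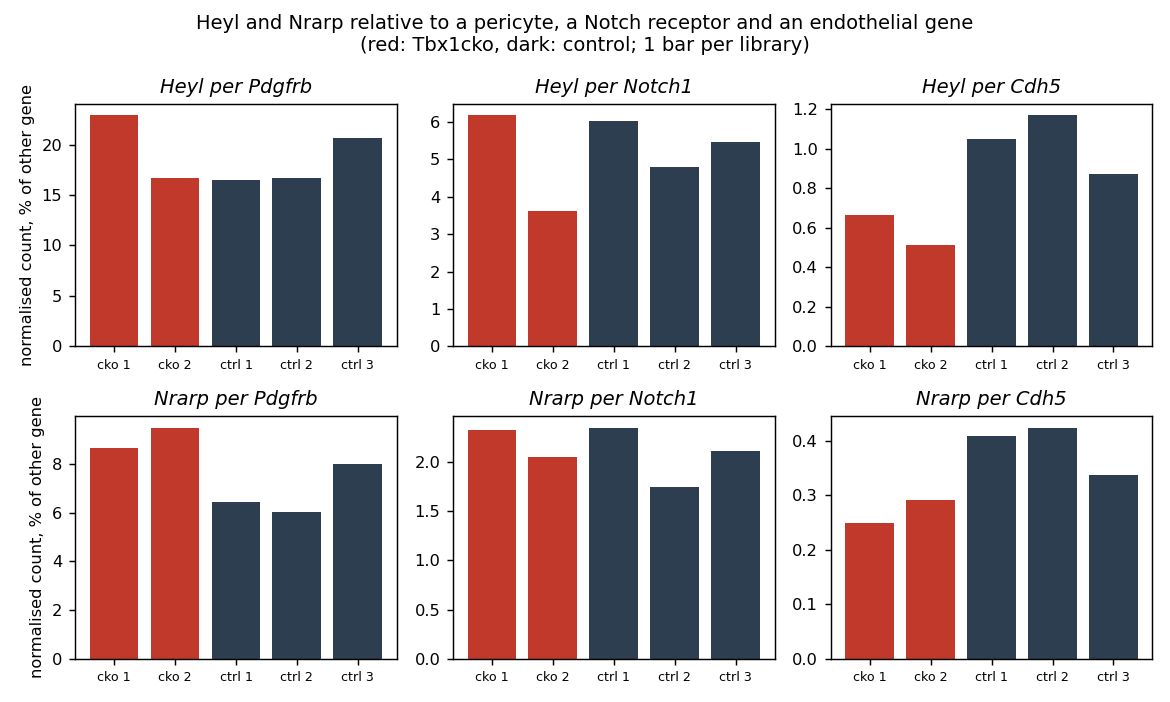
Normalised count of Heyl (top row) and Nrarp (bottom row) as a percent of Pdgfrb, Notch1 and Cdh5 in each library, with Tbx1cko bars in red on the left and control bars in dark blue on the right. Per Cdh5 both genes are lower in both Tbx1cko libraries than in all controls, while per Pdgfrb Heyl overlaps between the groups and Nrarp is higher in Tbx1cko.

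Other cell types were checked with the same kind of list. Of 10 endothelial markers 8 had a difference below 0, with sums of 173101 and 163018 normalised reads in Tbx1cko and 184650, 231506 and 175014 in controls. All 5 lymphatic markers were below 0 (median -0.35), with sums of 6780 to 8371 in Tbx1cko and 9308 to 13274 in controls. All 5 endocardial markers were below 0 as well (median -0.50), with sums of 8637 to 9215 in Tbx1cko and 11163 to 15979 in controls. Leukocyte markers were above 0 in 7 of 10 (median 0.39, and 0.15 without control replicate 2), with sums of 76534 and 81403 in Tbx1cko, against 79473, 49073 and 62225 in controls. Platelet markers were above 0 in 4 of 5 (median 0.25, and 0.81 without control replicate 2), with sums of 3676 and 3216 in Tbx1cko, against 1355, 2027 and 2362 in controls. Fibroblast markers (3 of 5 below 0, and 4 of 5 without control replicate 2) summed to 5962 and 12541 in Tbx1cko and to 7816 to 11678 in controls. Cardiomyocyte markers (3 of 5 below 0, and 0 of 5 without control replicate 2) summed to 6494 and 5608 in Tbx1cko and to 4753 to 10539 in controls. Lower in Tbx1cko without overlap were 5 of 10 endothelial, 2 of 5 lymphatic and 4 of 5 endocardial markers (13.9% of the genes tested). Higher without overlap were 1 of 10 endothelial, 3 of 10 leukocyte, 2 of 5 platelet and 1 of 5 cardiomyocyte markers (14.2%). No marker of these lists was at 0 in any library, and none passed the limma threshold over all genes. The part of cell composition in the values of the 8 genes was not tested.

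Upstream of the 8 genes, 8 of 9 Notch receptor and ligand genes were tested and all 8 had a difference below 0, with a median of -0.47 (-0.21 without control replicate 2). After GC correction 6 of the 8 were below 0. None passed the limma threshold. Notch3 had 2040 and 2235 normalised reads in Tbx1cko, against 4802, 7785 and 3443 in controls, a log2 difference of -1.24 (unadjusted p = 0.0170), or -0.93 without control replicate 2. Notch1, the main endothelial receptor, had 4988 and 6438 in Tbx1cko, against 8648, 15300 and 7598 in controls, a difference of -0.82, or -0.52 without control replicate 2. Both were lower in Tbx1cko without overlap, as were Dll1, Dll4 and Jag2 and 13.9% of all genes tested.

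Genes that process or modify the receptor showed no common direction. Of 8 genes for proteases that cut the receptor or for subunits of their complexes, 6 were below 0 (3 without control replicate 2), with 0 past the threshold. Furin, whose product makes the first cut, had 3653 and 3791 normalised reads in Tbx1cko, against 4612, 6368 and 4053 in controls. Adam10, the ligand-triggered sheddase, had 6036 and 6291 in Tbx1cko, against 5342, 1518 and 6098 in controls. Among 14 modulators 8 were below 0 (6 without control replicate 2). Dtx1, a Deltex ubiquitin ligase gene that is itself known as a Notch target, had 59.4 and 65.2 normalised reads in Tbx1cko, against 146, 318 and 136 in controls, a difference of -1.56 (unadjusted p = 0.0145, limma adjusted p = 0.762). It was -1.17 without control replicate 2. Dtx3, of the same family, had 1213 and 1232 in Tbx1cko, against 1868, 2887 and 1522 in controls.

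Among nuclear partners of RBPJ, 7 of 12 tested co-activator and co-repressor genes were below 0, at a median of -0.15, and 0 passed. With control replicate 2 left out, 9 of the 12 were below 0, at a median of -0.067, and after GC correction 8 were. Spen, which encodes a co-repressor that binds RBPJ, had 1432 and 1816 normalised reads in Tbx1cko, against 1899, 4033 and 2028 in controls. Of the other Hes-related genes 3 of 8 were tested, with 2 below 0 (1 without control replicate 2). Bhlhe40 had 8985 and 11354 normalised reads in Tbx1cko, against 13649, 12316 and 12107 in controls, while Bhlhe41 had 46.6 and 105 in Tbx1cko, against 79.1, 59.8 and 46.1 in controls.

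Of 11 arterial genes known to respond to Notch, Hey1 among them, 7 were below 0, at a median of -0.14, and 0 passed the limma threshold. Leaving out control replicate 2, 9 of the 11 were below 0 (median -0.10), and after GC correction 10 were (median -0.23). Gja4, a gap junction gene, had the lowest difference, -0.59, which was -0.27 without control replicate 2. Cxcr4, a chemokine receptor gene, had the highest, 0.25, which was 0.035 without that library. Of the 11, 3 were lower without overlap and 1 was higher, against 13.9% and 14.2% of the genes tested. The higher one was Gja5, another gap junction gene, with 1451 and 1438 normalised reads in Tbx1cko, against 1043, 1309 and 1386 in controls. Its difference was 0.22, and 0.26 without control replicate 2. The ligand gene Dll4 had 3955 and 4465 normalised reads in Tbx1cko, against 4999, 8069 and 5058 in controls. Unc5b, a guidance receptor gene, had 4419 and 3926 in Tbx1cko, against 5298, 8938 and 4696 in controls. These 2 had the smallest unadjusted p of that list.

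Among 12946 named genes outside the 8, those with the most similar profile over the 5 libraries were found by the root mean square difference of centred log2 values. For Heyl they were Rarb, Radil and Cbarp, at 0.033 to 0.053, beside a spread of 0.57 in Heyl itself. For Nrarp they were Anks6, Map3k14 and Bcor (0.036 to 0.054), for Hes1 Fam46b, Vcl and Lama3 (0.022 to 0.041), and for Hey1 Igf2, Tns1 and Lynx1 (0.043 to 0.052). For Hey2 they were Adat2, Mrps27 and Hoxa5 (0.046 to 0.074), for Lfng Gpatch2l, Tmbim1 and Sidt2 (0.025 to 0.030), for Maml2 Ubr7, Tfdp2 and Arnt (0.016 to 0.027), and for Rbpj Sec23a, Trim44 and Pigm (0.014 to 0.023). All profiles share the 5 libraries, and control replicate 2 weighs in each. Among the 8 genes themselves, Hes1 and Lfng were closest at 0.16, Heyl and Nrarp stood at 0.24, and Rbpj and Heyl were farthest apart at 1.05.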

How the data were processed

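Polyadenylated RNA of CD31+ cells was measured in 5 libraries. Groups and replicate numbers came from the sample titles. Per the submitters' processing notes, STAR 2.5.2b, DESeq2 1.20.0, DESeq and R 3.5.1 were used with GRCm38 (mm10). The counter, annotation and strand setting used are not stated there. What the authors deposited is a signal, the reads of each gene scaled by 1 size factor per library. Every value was a whole multiple of its library's smallest value above 0 (100% within 0.01), so whole reads were recovered.

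For 14339 genes with a mean of at least 10, log2(normalised count + 1) was modelled on genotype alone in limma 3.58.1 under R 4.3.3 (trended prior, 2-sided). P-values were adjusted by Benjamini-Hochberg and called at 0.05. This scale understates the fold change of low genes. With 2 against 3 libraries an exact permutation test cannot go below a 2-sided p of 0.2. Positions, exon lengths and GC content came from GENCODE M21 by symbol. For GC correction, a loess curve (span 0.3) of deviation against GC percent was subtracted from each library. edgeR 4.0.16 and DESeq2 1.42.0 were run on the recovered reads as alternatives, and the tests were checked on simulated counts. The simulated counts held no shift with GC content in any library, so that check does not cover the shift in control replicate 2. Replicates of a group differed beyond sampling noise (chi-square per degree of freedom of 14.3 or more in each pair). No such pair was therefore the same library sequenced again. Pairs across the groups were not compared, and the check cannot show that libraries came from different animals.

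Named were the 8 genes, Tbx1, and from each context list the 2 tested genes with the smallest unadjusted p, of which 1 gene is not reported here. Dll1, Jag2, Gm38287, Rgs5, Pdgfrb, Cdh5, Gja4, Gja5 and Cxcr4 fall outside that rule, chosen with their values already seen. The 8 genes and the 14 context and marker lists were chosen with earlier results of these data known. Counting errors cover sampling of reads only.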

Additional observations from a re-analysis of the deposited data

How the results depend on the processing

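The log2 differences of Heyl, Nrarp, Hes1, Hey1 and Hey2 stayed below 0 under all 22 alternatives, at -1.21 to -0.72 for Heyl, -0.90 to -0.48 for Nrarp, -0.54 to -0.13 for Hes1, -0.64 to -0.13 for Hey1 and -0.56 to -0.13 for Hey2. Heyl passed the threshold in 2 of the 22 and Nrarp in 1. Signs turned in 3 genes, whose cause was not tested. Rbpj was -0.0083 with GC correction and -0.055 with that correction and control replicate 2 left out. Lfng was 0.13 and 0.07 in those fits. Maml2 was -0.016 with GC correction, -0.016 without control replicate 2, -0.046 with both, -0.028 with edgeR and -0.026 with DESeq2 without that library, whatever DESeq2's filter. It ran from -0.016 to 0.28 when 1 library was left out. The count of these 8 genes below 0 was 6 or 7 throughout. Their median was -0.14 with sample weights and between -0.41 and -0.21 when 1 library was left out.

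Over all genes, limma called 0, with 250 at an unadjusted p under 0.05; edgeR also called 0 and DESeq2 4. Leaving out 1 library gave 0 to 3 calls and 48 to 1070 genes at an unadjusted p under 0.05 (108, 1070 and 467 on dropping control replicates 1, 2 and 3 in turn, 49 and 48 on dropping Tbx1cko replicates 1 and 2, where the lone Tbx1cko library is assumed to vary like the controls). The unadjusted count was 165 with a filter at 50, 552 with GC correction and 3894 with sample weights, which called 760. Without control replicate 2, edgeR called 1 (1070 unadjusted), DESeq2 78, or 65 and 64 with its default and no filter (738 unadjusted each), and GC correction left 1006 unadjusted.

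With the replicate number as a block, where control replicate 3 has no partner, limma called 3 genes, with 1606 at an unadjusted p under 0.05, and Heyl was at -1.20 (adjusted p = 0.356). Deviations of same-numbered libraries had r of -0.056 and -0.046 across genes. With 2 Tbx1cko libraries the deviations of one mirror those of the other, so these values cannot show whether same-numbered libraries share a batch. Few reads limit Hey2 most.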
